A study of Oryza sativa with 4 samples.

Results

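The grain over root contrast of rice was set side by side in the cultivars Sharbati and Lalat, to describe which organ differences both cultivars shared and which were seen in 1 of them. Its members were the 12912 loci with an FPKM (sequenced fragments scaled to transcript length and to the mapped fragments of the library) above 0 in all 4 libraries, 41.1% of the 31453 loci listed. The libraries were poly(A)-selected, paired-end RNA sequencing of developing grain and of roots, 1 library for each organ of each cultivar, so no group had a replicate, no test was made, and neither the spread between plants nor that between library preparations is known. Sharbati and Lalat are indica cultivars that the labels separate by brown rice iron, 24.88 ppm in Sharbati and 7.80 ppm in Lalat. All 4 groups came from plants grown in pots of soil and manure in a net house, with no other treatment named, and were collected 15 days after panicle emergence. Each library is a whole organ, in which fewer cells of a type and less RNA per cell cannot be told apart.

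At this stage the rice grain is filling. The endosperm takes up sucrose, cleaves it, builds starch through ADP-glucose pyrophosphorylase, starch synthases, branching enzymes and debranching enzymes, and packs glutelins, prolamins and albumins into protein bodies with the help of chaperones of the endoplasmic reticulum. Roots take up water, silicon, ammonium, phosphate and metals, lay down lignin and suberin with the help of peroxidases and dirigent proteins, and meet soil microbes with a large set of receptor kinases, WRKY factors and detoxifying enzymes. Rice roots acquire iron partly as complexes with deoxymugineic acid, and ferritin, vacuolar transporters and citrate efflux proteins govern where that iron is stored or moved.

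For each locus the log2 of grain FPKM over root FPKM was taken in each cultivar and centred on the median of all 12912 members, which before centring was -1.32 in Sharbati and -1.70 in Lalat. The authors processed the grain pair and the root pair as separate tables, so every grain over root value below sets separately processed tables beside each other. Positive centred ratios are called grain-high and negative ones root-high, with a threshold of 4-fold, or 2 on the log2 scale. Of the members, 8476 reached 5 FPKM in an organ of each cultivar and were compared, 65.6% of all, and the other 4436 were too low in 1 or both cultivars. The floor was not the same in all libraries: 15584 loci were above 0 in Sharbati root against 23740 in Lalat root, and the grain libraries held 25305 in Sharbati and 24886 in Lalat. A further 6144 loci were above 0 in the other 3 libraries but not in Sharbati root and are not members, while 44 members lay just inside, below 0.1 FPKM in Sharbati root. The libraries fit their organ labels in the lists of starch and root genes. Summed starch synthesis FPKM was 12408 in the grain of Sharbati and 15336 in that of Lalat, against 29.2 and 95.4 in the roots, and the summed root uptake genes stood at 424 and 163 in the roots against 1.26 and 2.89 in grain. Storage protein transcripts were also listed in the roots, unevenly: prolamins summed to 108 FPKM in Sharbati root and 4642 in Lalat root, with 16 and 26 of 28 loci above 0, and glutelins to 72.2 and 2394. The grain tables held 21 and 20 of these prolamins above 0. Of 15 glutelins, 7 and 8 were above 0 in grain, against 10 and 14 in root. Among named storage genes, GluA1, GluA3, GluB1a, GluB1b, GluB4, GluB5, GluC, PROLM9 and PROLM12 had root values but no grain entry. PROLM22 had the reverse. GluA2 was at 0 in the grain of Sharbati, against 12212 FPKM for Lalat. Which part grain RNA has in root values was not tested.

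The organ contrast was mostly shared. Across the 8476 compared loci the centred ratios of both cultivars had a Pearson r of 0.86 and a Spearman rho of 0.83, and 7041 loci (83.1%) had the same sign. These are descriptions across loci, which are not independent replicates and share the 4 libraries. The ratios spread more widely in Sharbati, with an SD over loci of 3.21 against 2.67 in Lalat, and the median absolute difference between the cultivars was 0.95. The threshold was passed by 3951 loci in Sharbati (46.6% of those compared) and by 2776 in Lalat (32.8%). With centring on the median member, most of this imbalance was on the grain side. Grain-high were 1959 loci in Sharbati (23.1%) against 945 in Lalat (11.1%), while root-high loci numbered 1992 (23.5%) and 1831 (21.6%). The loci past the threshold in the same direction in both cultivars were 57.3% of those of Sharbati and 81.5% of those of Lalat.

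How many loci count as grain-high depends on the centre. The 2409 loci with 10 FPKM or more in all 4 libraries had a median centred ratio of 1.09 in Sharbati and 0.70 in Lalat, so abundant transcripts lay towards the grain side of the median member. Grain-high loci made up 49.6% of the loci past the threshold in Sharbati and 34.0% in Lalat. With centring on the abundant loci these shares were 26.01% and 17.5%, and with no centring 21.5% and 6.76%. The side of the imbalance between the cultivars depends on the centre too. With the abundant loci, 1020 loci in Sharbati and 506 in Lalat were grain-high, and 2901 and 2384 root-high, an excess of like size on both sides. With no centring the counts were 863 and 259 grain-high, and 3147 and 3573 root-high, more of them in Lalat. Directions given below hold relative to the median member unless another centre is named.

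**Figure D1:**
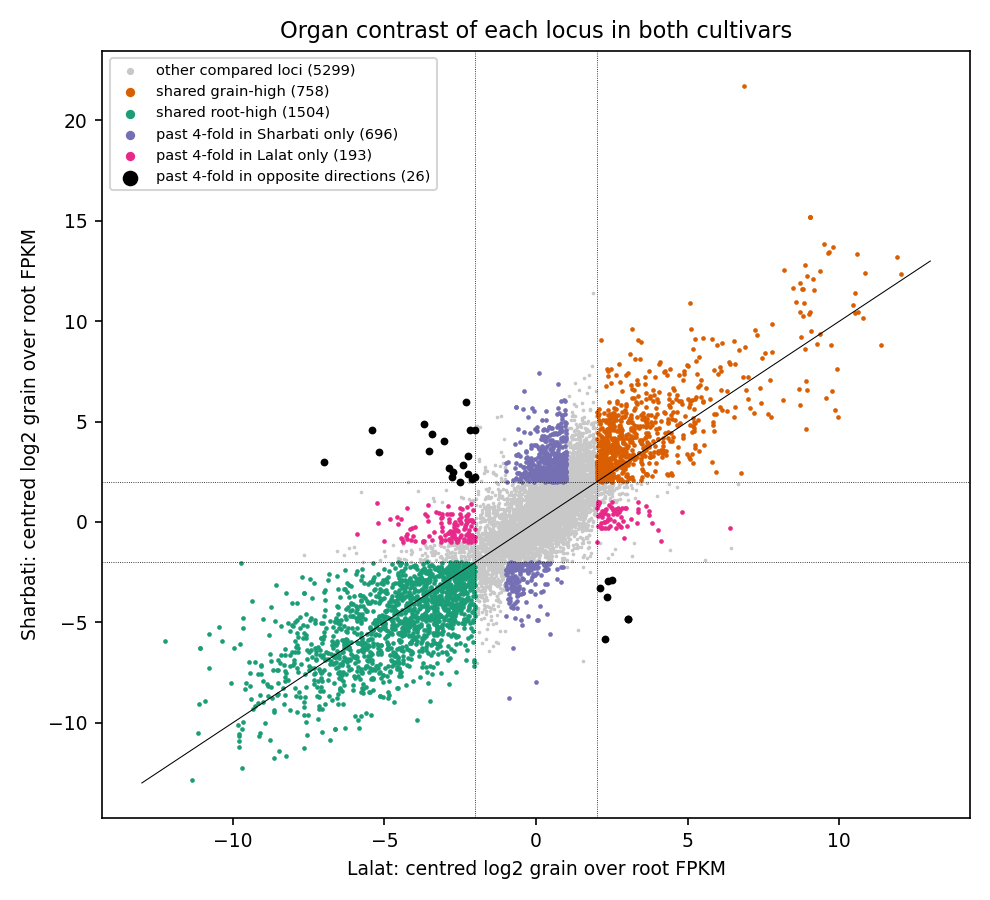
Each point is 1 of the 8476 compared loci, with the centred log2 grain over root FPKM of Lalat on the horizontal axis and of Sharbati on the vertical axis; dotted lines mark 4-fold and the solid line equal ratios. The shared classes of 758 and 1504 loci lie along the line, whereas only 26 loci lie in the opposite corners; the point at 21.74 is LOC_Os01g63810, a starch binding domain protein with 0.000173 FPKM in Sharbati root.

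Shared grain-high loci numbered 758, 8.94% of those compared. They were 38.7% of the grain-high loci of Sharbati and 80.2% of those of Lalat. A locus that reached the minimum of 5 FPKM only through the organ where it was high had to show a contrast, so counts over the compared loci of a list here and below describe those loci and not the whole list. The 9 compared members of the starch synthesis list were in this class, with a median centred ratio of 10.36 in Sharbati and 8.995 in Lalat, against 0.17 and 0.08 over all compared loci. The list has 23 entries, of which 13 were members. The 4 members too low to be compared did not share that contrast: SSIIIb had ratios of -1.20 and -1.03 in Sharbati and Lalat, SSIVa -1.18 and -1.03, GBSSII 0.24 and 3.40, and ISA3 3.11 and 0.99.

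BEIIb (LOC_Os02g32660, chromosome 2, 19355747 to 19367127 in the coordinates of the files, which name no genome build), a branching enzyme of amylopectin, stood at 1507 FPKM in Sharbati grain, 0.363 in Sharbati root, 1258 in Lalat grain and 2.70 in Lalat root. The waxy gene Wx, the granule-bound starch synthase that makes amylose (LOC_Os06g04200, chromosome 6, 1765621 to 1770656), had 2905 FPKM in Sharbati grain and 5.14 in its root, and 8276 and 17.3 in Lalat. Its centred ratios of 10.46 and 10.60 were close although its grain level was higher in Lalat. The starch synthase SSIIa had 255 and 147 FPKM in grain and 0.359 and 0.342 in root, in the order Sharbati and Lalat. Both grain libraries lay far above both root libraries for each of these enzymes, and the least separated member was the starch synthase SSIVb, at 10.2 against 1.302 FPKM in Sharbati and 15.4 against 5.71 in Lalat. FLO2, a regulator of grain filling, followed at 139 against 0.916 FPKM in Sharbati and 75.4 against 2.38 in Lalat.

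Among the lists with 3 or more compared loci, prolamins and the seed allergenic and albumin family had the widest median contrast, wider in Sharbati. All 6 compared prolamins were shared grain-high, with medians of 14.19 in Sharbati and 9.77 in Lalat. So were 7 of 8 loci of the seed allergenic and albumin family (12.65 and 9.25) and both compared glutelins (12.42 and 8.56). In Lalat the glutelin median was below the 8.995 of starch synthesis. The ratio was higher in Sharbati for each of the 6 prolamins and 8 allergenic and albumin loci, against 56.6% of all compared loci. Prolamin PROLM29 (LOC_Os12g17010, chromosome 12, 9733272 to 9734352) had 36066 FPKM in Sharbati grain, 9.66 in Sharbati root, 6969 in Lalat grain and 6.005 in Lalat root. The 2S albumin SSA1 had 42860.3 and 15.0 FPKM in Sharbati and 26816 and 185 in Lalat. The allergenic protein RAL6 had 27669.5 and 4.70 FPKM in Sharbati and 19643 and 89.6 in Lalat. For SSA1 and RAL6 the cultivars were further apart in root than in grain, and for PROLM29 further apart in grain, where Sharbati was higher. Over the lists, the median centred Sharbati over Lalat gap on the log2 scale was 1.95 in grain and -1.73 in root for prolamins, and 2.33 and -0.70 for the allergenic and albumin family. PROLM3, PROLM6 and LOC_Os05g26400 carry identical values in all 4 libraries and amount to 1 measurement. Such sharing touched 123 members, which hold 54 distinct measurements. In each prolamin median and count that 1 prolamin measurement enters 3 times. Its centred root gap was -4.72, whereas those of PROLM29, PROLM28 and PROLM24 were 1.71, 1.26 and 3.26. The negative root median of the prolamins thus rests on it. Its ratios were 15.19 in Sharbati and 9.02 in Lalat, against 11.39 to 13.19 and 10.51 to 11.88 for these others. Only loci above 0 in all 4 libraries entered, 7 of 28 prolamins and 2 of 15 glutelins. Storage genes with no grain entry, such as GluA1 and PROLM12, are thus outside these contrasts.

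Outside starch and storage, the strongest shared grain-high loci included GASR6, of the gibberellin-regulated Snakin family, at 8381 and 3.99 FPKM in grain and root of Sharbati and 1985 and 1.55 in Lalat. LOC_Os03g40440, described as a B12D protein, had 1097 and 2.001 FPKM in Sharbati and 1195 and 2.63 in Lalat. These loci had nearly equal centred ratios in both cultivars, 12.36 and 12.03 for GASR6 and 10.42 and 10.53 for the B12D protein. Of 26 compared NAC factors, a plant transcription factor family, 3 were shared grain-high, a share near the 8.94% of all compared loci, with LOC_Os02g12310 at 1631 and 1.05 FPKM in Sharbati and 2156 and 16.8 in Lalat. LOC_Os11g31330 followed at 649.5 and 0.844 FPKM in Sharbati and 1429.9 and 10.3 in Lalat, and LOC_Os05g34310 at 228 and 0.772, and 424 and 2.58. The other NAC factors lay elsewhere, 11 of them in the shared root-high class, against 17.7% of all compared loci. One aquaporin, LOC_Os10g35050, was grain-high at 1212 and 0.941 FPKM in Sharbati and 1445 and 13.4 in Lalat.

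The folding machinery of the endoplasmic reticulum did not move as 1 block. BiP1, the lumenal chaperone, was shared grain-high at 693 and 68.1 FPKM in Sharbati and 593 and 183 in Lalat, and so was the disulfide isomerase PDIL1-1, which assists proglutelin folding and had ratios of 2.23 and 3.49, or 1.14 and 2.79 with centring on the abundant loci. Calreticulin, a chaperone of glycoproteins, was shared root-high at 12.99 and 251 FPKM in Sharbati and 15.7 and 400.3 in Lalat. ERO1, the oxidase that recharges disulfide isomerases, had a ratio of 5.28 in Sharbati and 1.17 in Lalat. The list median was 2.21 in Sharbati and 1.48 in Lalat, and with no centring the Lalat median was -0.22.

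**Figure D2:**
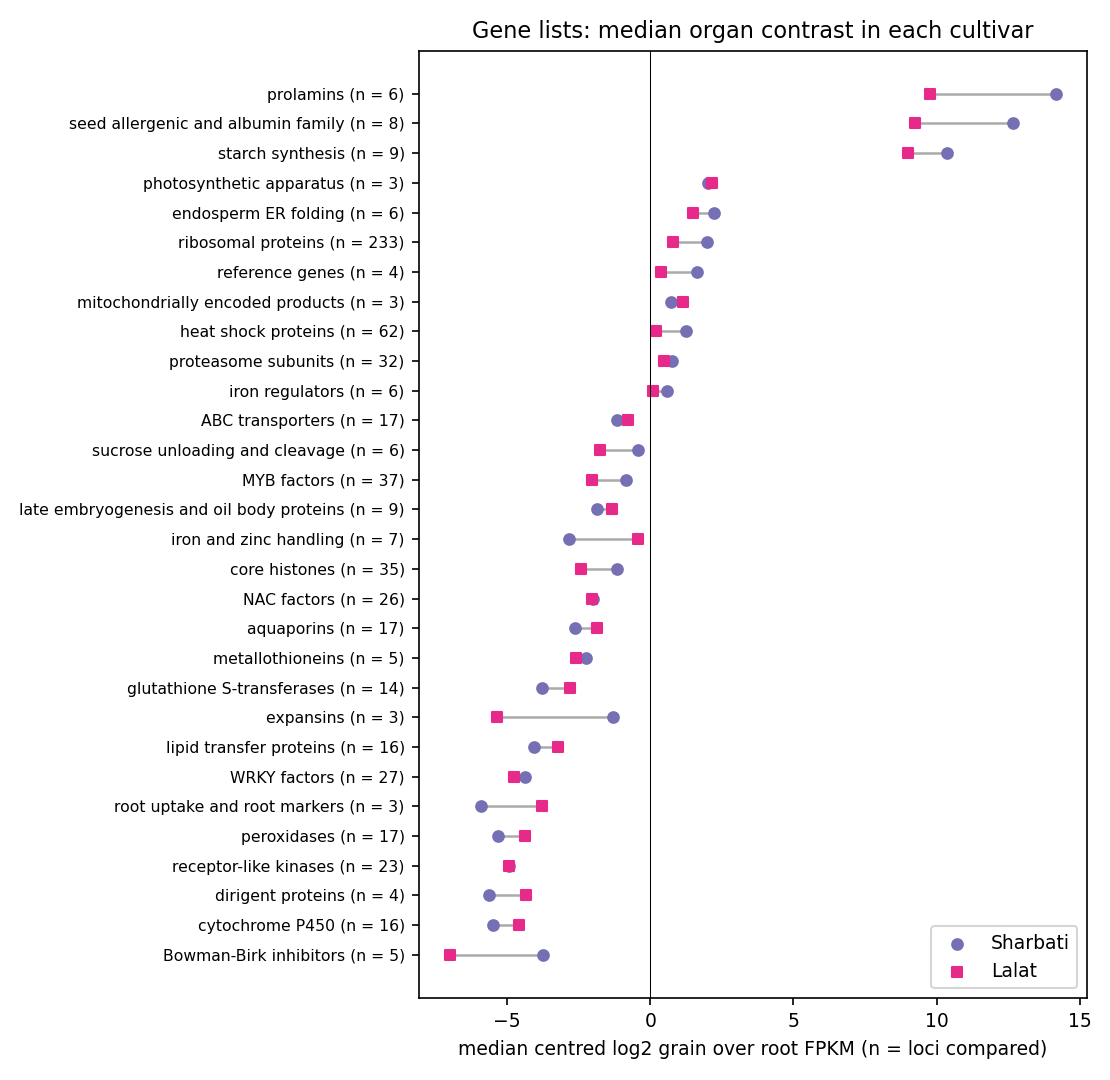
Points give the median centred log2 grain over root FPKM of the compared loci of 30 gene lists, circles for Sharbati and squares for Lalat, with the number of loci in brackets; lists are sorted by the mean of both medians. Prolamins (14.19 and 9.77) and starch synthesis (10.36 and 8.995) stand at the grain end in both cultivars. Bowman-Birk inhibitors (-3.74 and -7.01), cytochrome P450, dirigent and receptor kinase lists stand at the root end. Among the prolamins, PROLM3, PROLM6 and LOC_Os05g26400 share their values. The 3 loci under mitochondrially encoded products are described as mitochondrial ribosomal proteins.

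Shared root-high loci numbered 1504, 17.7% of those compared, and made up 75.5% of the root-high loci of Sharbati and 82.1% of those of Lalat. Centring on the abundant loci lowers every ratio, by 1.09 in Sharbati and 0.70 in Lalat. All 1504 therefore had to stay in their class, and only grain-high loci could leave theirs. Of the 758 shared grain-high loci 388 stayed. These counts do not compare how firm the classes are. Several cell wall and defence families had large shares of their compared loci in the class, though few of their listed loci could be compared. It held 12 of 16 cytochrome P450 loci, 3 of 4 dirigent proteins, which guide lignan and lignin coupling, 20 of 27 WRKY factors, 15 of 23 receptor-like kinases, 11 of 17 peroxidases and 10 of 16 lipid transfer proteins, against 17.7% of all compared loci. The share was smaller among glutathione S-transferases (6 of 14), which conjugate toxic compounds, MYB factors (15 of 37) and ABC transporters (6 of 17). Expansins, of the cell wall, had 1 of 3, and none of 20 listed laccases could be compared. Compared were 16 of 254 listed cytochrome P450 loci and 4 of 28 dirigent proteins. Of the 16 lipid transfer proteins 3 were shared grain-high, against 8.94% of all compared loci.

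By the smaller of the ratios of both cultivars, the first of the named loci was LOC_Os01g08380, described as a transferase family protein (chromosome 1, 4110379 to 4112127), at 0.0598 and 1098 FPKM in grain and root of Sharbati and 0.139 and 1184 in Lalat. The MYB factor LOC_Os01g74410 had 0.0263 and 106 FPKM in Sharbati and 0.166 and 482 in Lalat. The peroxidase LOC_Os04g59190 had 0.171 and 626 FPKM in Sharbati and 0.274 and 495 in Lalat. The highest grain value among these 3 loci was 0.274 FPKM and the lowest root value 106 FPKM. They were chosen by the size of their ratios, so this separation follows from the choice. LTPL40, a lipid transfer protein, stood at 0.0467 and 188 FPKM in Sharbati and 0.0651 and 119.5 in Lalat. WRKY71 had 0.302 and 176 FPKM in Sharbati and 0.648 and 614 in Lalat.

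The root transporters that could be compared were on the root side in both cultivars, with a wider contrast in Sharbati. Lsi1, the silicon influx channel, had 0.0700 and 143 FPKM in grain and root of Sharbati and 0.490 and 87.95 in Lalat, which gave ratios of -9.67 and -5.78. The ammonium transporter AMT1;1 had 0.205 and 31.2 FPKM in Sharbati and 0.229 and 10.2 in Lalat. Of 15 root entries only 3 could be compared, the third being the phosphate transporter PT2 at -3.91 and -1.25. The fourth member, NAR2.1, a partner protein of nitrate transporters, was too low in Lalat to be compared and had 0.520 and 102 FPKM in Sharbati and 0.949 and 1.23 in Lalat, which gave ratios of -6.29 and 1.33. Of 17 compared aquaporins, 8 were shared root-high (against 17.7% of all compared loci) and 2 shared grain-high, a share near the 8.94% of all. Dehydrins, which protect drying tissue, split by locus: LOC_Os02g44870 had 2.77 and 1506 FPKM in Sharbati and 6.44 and 731 in Lalat, whereas LOC_Os11g26790 had 16.7 and 2.92, and 10.7 and 0.755. The oleosin OLE18, an oil body coat protein of embryo and aleurone, was grain-high with 37.4 and 2.50 FPKM in Sharbati and 92.0 and 0.299 in Lalat.

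Metallothioneins, small metal-binding proteins, had list medians of -2.26 in Sharbati and -2.60 in Lalat, on the root side. Of 5 compared loci 3 were shared root-high, against 17.7% of all compared loci. Another was Sharbati-only root-high (against 2.16% of all) and 1 Lalat-only root-high (against 1.47%). The highest ratio of the list in Lalat was 0.90, on the grain side. LOC_Os12g38270 had 2.89 and 401 FPKM in Sharbati and 2.18 and 34.0 in Lalat. LOC_Os01g74300 had 11.5 and 51.6 FPKM in Sharbati and 73.1 and 5057 in Lalat. The first was thus the more root-biased in Sharbati and the second in Lalat. Of these 2 loci only the second was in a one-cultivar class, Lalat-only root-high. It held 5057 of the 6424 summed metallothionein FPKM of Lalat root, against 51.6 of 2150.4 in Sharbati root.

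Loci past 4-fold in Sharbati and within 2-fold in Lalat numbered 696 (8.21% of those compared), 513 on the grain side (6.05%) and 183 on the root side (2.16%). The reverse, past 4-fold in Lalat and within 2-fold in Sharbati, held for 193 loci (2.28%), 68 on the grain side (0.802%) and 125 on the root side (1.47%). A further 1203 loci (14.2%) were past the threshold in 1 cultivar and between these limits in the same direction in the other, so a locus outside the shared classes often differed only in size. Membership of these classes depended on the centre. With centring on the abundant loci 160 of the 513, 60 of the 183, 15 of the 68 and 30 of the 125 remained in their class, and among the 5 loci chosen to be named in each, 2 or 3 remained.

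Which organ set these loci apart can be read from the cultivar gaps, the log2 of Sharbati over Lalat FPKM within an organ, centred on its own median. Grain gap less root gap is, up to a constant, the difference of the ratios that defines these classes. The order of the signed gaps in each class thus follows from the rule, and the counts below compare sizes without sign. In the Sharbati-only grain-high class the gap was larger in root than in grain for 346 of 513 loci (67.4%), with median gaps of -1.36 in root and 0.76 in grain. In this class 238 loci (46.4%) lay below 5 FPKM in Sharbati root. When 5 FPKM in Sharbati root was also required, 275 of the 513 loci were left. In the Sharbati-only root-high class the gap was larger in grain for 112 of 183, with medians of -1.41 in grain and 1.04 in root. In the Lalat-only classes it was larger in root for 45 of 68 grain-high loci (66.2%) and for 59 of 125 root-high loci (47.2%). Among the 4037 loci past the threshold in neither cultivar it was larger in root for 54.7%, so the Lalat-only root-high share was not above that. Over all compared loci the SD of the gap was 1.07 in grain and 1.204 in root.

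**Figure D3:**
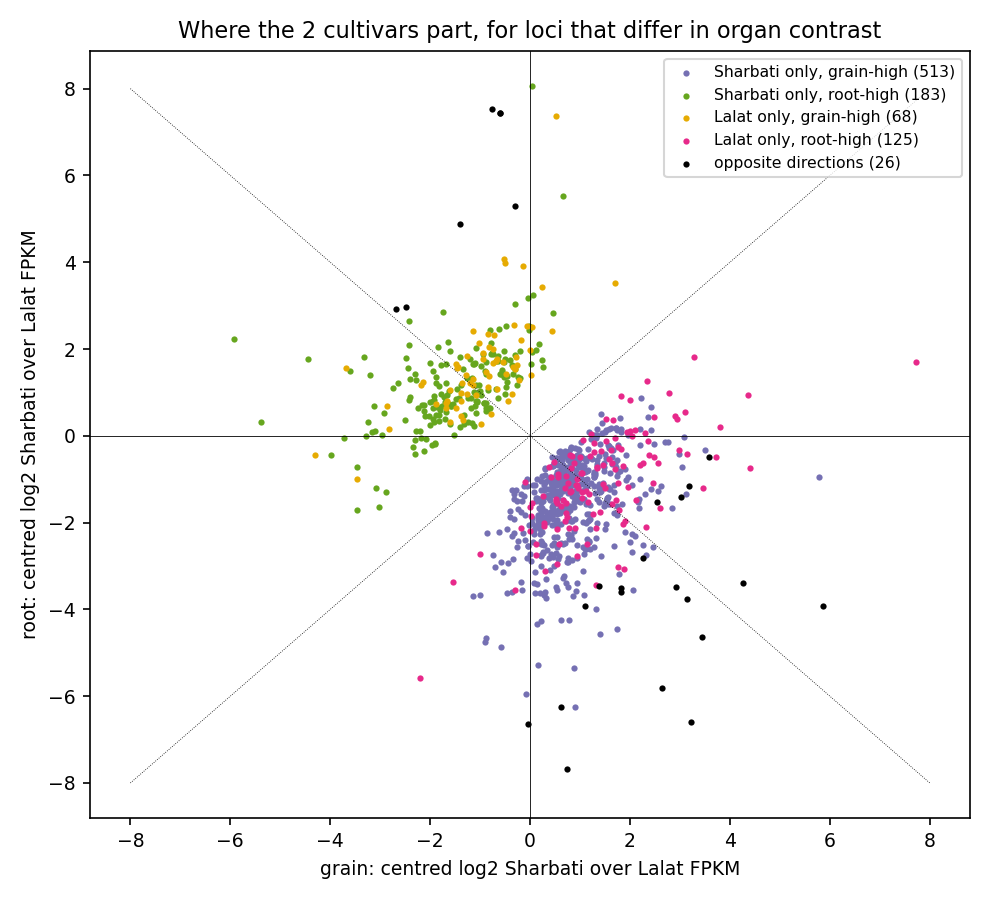
Each point is a locus past 4-fold in 1 cultivar only or in opposite directions, with the centred log2 Sharbati over Lalat FPKM in grain on the horizontal axis and in root on the vertical axis; dotted lines mark equal gaps. The Sharbati-only grain-high loci (513) lie mainly at the lower right, with a median gap of -1.36 in root and 0.76 in grain, and the Sharbati-only root-high loci (183) at the upper left. Grain gap less root gap is, up to a constant, the difference of the ratios. The side of the equal-gap line on which each class lies thus follows from the class rule.

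The strongest Sharbati-only grain-high locus was LOC_Os02g43360, a cytochrome b5-like heme binding protein, at 96.0 FPKM in Sharbati grain, 1.39 in Sharbati root, 70.4 in Lalat grain and 214 in Lalat root. The grain levels were alike and the root levels were not. The mitochondrial carrier LOC_Os01g70800 had the same form, at 33.5 and 0.717 FPKM in Sharbati and 17.3 and 34.3 in Lalat. LOC_Os06g05020, one of the early nodulin 93 proteins, had 32.8 and 1.67 FPKM in Sharbati and 47.8 and 210 in Lalat. The 5 compared loci of that family, a list added after values were seen, had medians of 1.49 in Sharbati and -0.95 in Lalat. Each had the higher ratio in Sharbati, against 56.6% of all compared loci. LOC_Os06g05020, itself named for its difference, is 1 of the 5. All but LOC_Os02g13380 lie between 2199241 and 2213563 on chromosome 6, so these loci are not taken as separate observations. LOC_Os01g06630, a small hydrophilic seed protein, was the exception among the 5 named, since its gap lay mainly in grain: 53.1 FPKM in Sharbati and 1.32 in Lalat there, against 1.45 and 5.73 in root.

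Sucrose cleavage showed this pattern in part. SUS2, a sucrose synthase, had 247 FPKM in Sharbati grain, 37.1 in Sharbati root, 118 in Lalat grain and 306 in Lalat root, with ratios of 4.05 and 0.33. The sucrose synthases SUS3 and SUS4 were at 0 in Sharbati root and are therefore not members. Both were far higher in grain. SUS4 had 838 FPKM in Sharbati grain, and 379 and 10.0 in grain and root of Lalat. SUS3 had 46.6 FPKM in Sharbati grain, and 123 and 1.75 in Lalat. CIN1, a cell wall invertase, was shared root-high at 0.809 and 97.8 FPKM in Sharbati and 1.79 and 38.5 in Lalat. The sucrose transporter SUT1 was shared root-high as well, at 0.759 and 9.08 FPKM in Sharbati and 4.21 and 128 in Lalat. The only compared pyruvate decarboxylase, LOC_Os03g18220, an enzyme of fermentation added to the lists after its values were seen, had 65.6 and 3.52 FPKM in Sharbati and 80.5 and 278 in Lalat. The grain levels of this enzyme differed little and its root levels widely. The list of 6-phosphofructokinases, which commit sugar to glycolysis, was also added after values were seen, and 3 of its 6 loci were compared. Of these, 2 were shared root-high and 1 Lalat-only root-high, against 17.7% and 1.47% of all compared loci. All 3 reached 5 FPKM through root only, with grain values from 0.638 to 3.71 FPKM, so they had to show a contrast. Like the pyruvate decarboxylase, the aquaporin LOC_Os03g05290 was Sharbati-only grain-high, with 179 and 11.2 FPKM in Sharbati and 369 and 668 in Lalat.

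Ribosomal proteins leaned to the grain side more in Sharbati. Of 233 compared loci, 59 were Sharbati-only grain-high (25.3%, against 6.05% of all compared loci) and 12 shared grain-high, and 186 (79.8%) had the higher ratio in Sharbati, against 56.6% of all. The list medians were 1.99 in Sharbati and 0.79 in Lalat. With centring on the abundant loci they were 0.90 and 0.09, and with no centring the Lalat median was -0.91, so the sign in Lalat depends on the centre while the order of the cultivars held under both centres. The 40S protein S19 at LOC_Os03g31090 had 68.2 and 7.35 FPKM in Sharbati and 49.0 and 158 in Lalat. Heat shock proteins had the same tilt, with 46 of 62 higher in Sharbati, and medians of 1.24 and 0.19. The medians were 0.15 and -0.52 with centring on the abundant loci and -0.07 and -1.52 with no centring, so their sign depends on the centre. Shared grain-high were 12 of the 62, against 8.94% of all compared loci. Of these, the DnaK protein LOC_Os12g14070 had 1333 and 45.1 FPKM in Sharbati and 456 and 33.95 in Lalat. Core histones, by contrast, were mostly on the root side of the median in both cultivars (-1.17 and -2.42, or -2.26 and -3.13 with centring on the abundant loci), and 26 of 35 had the higher ratio in Sharbati. Of 32 compared proteasome subunits none was in a shared class, 5 were grain-high and 1 root-high past 4-fold in Sharbati (against 23.1% and 23.5% of all compared loci), and 1 was grain-high in Lalat (against 11.1%).

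The 4 reference genes can be set beside such tilts. Ubiquitin UBQ5 had 177 and 154 FPKM in Sharbati and 162 and 339 in Lalat. Its locus is described as 40S ribosomal protein S27a, so it does not stand apart from the ribosomal proteins. The elongation factor eEF1A had 237 and 176 FPKM in Sharbati and 227 and 538 in Lalat, and actin ACT1 had 95.1 and 121 FPKM in Sharbati and 66.3 and 181 in Lalat. All 3 stayed within the threshold in both cultivars, but the ratio of all 4 was higher in Sharbati, by a median of 1.08. The median difference was 1.04 for the ribosomal proteins and 0.22 over all compared loci, so the ribosomal tilt was no larger than that of the reference genes. GAPDH, a glycolytic enzyme, was the fourth, with 119 and 58.7 FPKM in Sharbati and 69.5 and 568 in Lalat, and its ratios of 2.34 and -1.33 had opposite signs. As deposited, Lalat root was the highest of the 4 libraries for each of the 4 genes.

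Sharbati-only root-high loci included the isoflavone reductase LOC_Os01g01660, at 0.151 and 29.2 FPKM in grain and root of Sharbati and 8.67 and 47.6 in Lalat. LOC_Os01g57004, an adhesive proline-rich protein, had 1.66 and 99.3 FPKM in Sharbati and 22.7 and 57.7 in Lalat. These were set apart mainly by grain, where Sharbati was the lower. LOC_Os01g08350, described as a mitochondrial ATP synthase alpha subunit, was instead set apart by root, with 1.36 and 120.0 FPKM in Sharbati and 1.17 and 5.26 in Lalat.

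Of 7 compared genes that store and move iron and zinc, 3 were in the Sharbati-only root-high class, against 2.16% of all compared loci. Ferritin FER1, the plastid iron store, had 1.59 and 27.3 FPKM in grain and root of Sharbati and 3.43 and 15.4 in Lalat. Ferritin FER2 had 0.833 and 15.0 FPKM in Sharbati and 3.63 and 16.0 in Lalat. The ferritins are near-identical copies between which reads can be split, so they are not 2 independent observations. DMAS1, the deoxymugineic acid synthase that makes the iron-chelating phytosiderophore, had 0.404 and 12.2 FPKM in Sharbati and 2.73 and 9.21 in Lalat. All 3 were lower in Sharbati grain than in Lalat grain. For FER1, FER2 and DMAS1 in this order, the centred gaps were -0.65, -1.67 and -2.30 in grain and 1.84, 0.94 and 1.43 in root. Both organs thus contributed, and for FER1 the root gap was the larger. With centring on the abundant loci DMAS1 remained in the class at -4.69 and -0.76, whereas FER1 and FER2 were at -1.17 and -1.13 in Lalat, past 2-fold, and left it. The vacuolar iron transporter VIT2 (0.148 and 8.58 FPKM in Sharbati, 0.745 and 15.4 in Lalat) and the citrate efflux protein FRDL1 (0.0572 and 8.31, and 0.157 and 41.3) were shared root-high. YSL2, a transporter of iron nicotianamine whose locus LOC_Os02g43370 the files describe as a transposon protein, had 10.8 and 6.35 FPKM in Sharbati and 3.17 and 7.09 in Lalat, and was Sharbati-only grain-high with the main centre but not with the abundant loci. The list median was -2.86 in Sharbati and -0.43 in Lalat.

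Among the 6 compared iron regulators, the ubiquitin ligases HRZ1 and HRZ2, which restrain the iron deficiency response, were Sharbati-only grain-high, as were 6.05% of all compared loci. HRZ2 had 10.8 and 3.92 FPKM in Sharbati and 4.41 and 14.1 in Lalat, and HRZ1 7.99 and 4.03, and 5.71 and 11.1. Neither stayed in the class with centring on the abundant loci. The transcription factor IDEF1 had 28.9 and 36.6 FPKM in Sharbati and 44.2 and 92.9 in Lalat, and with IDEF2, IRO3 and PRI1 stayed within the threshold in both cultivars. With the abundant centre IDEF2 was past it in both, at -2.84 and -2.25, and PRI1 in Lalat, at -2.50. The list medians of 0.59 and 0.11 turned to -0.50 and -0.60 with the abundant centre.

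Lalat-only loci were fewer. On the grain side LOC_Os03g42130, described as gibberellin 20 oxidase 2, an enzyme of gibberellin synthesis, had 83.2 FPKM in Lalat grain, 20.4 in Lalat root, 8.29 in Sharbati grain and 16.1 in Sharbati root. LOC_Os06g27770, an isoflavone reductase homolog, had 67.1 and 12.7 FPKM in Lalat and 3.79 and 18.4 in Sharbati. In both, the root libraries were close and the grain libraries were not. On the root side the zinc finger gene ZOS12-09 had 1.85 and 133 FPKM in Lalat and 6.77 and 15.4 in Sharbati. The kinase LOC_Os11g02240, of the calcium/calmodulin-dependent and SNF1-like group, had 3.36 and 307 FPKM in Lalat and 6.14 and 14.01 in Sharbati.

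Opposite contrasts were seen in 26 loci (0.307%), with 19 loci grain-high in Sharbati and root-high in Lalat (0.224%) and 7 the other way round (0.0826%). With centring on the abundant loci 10 of the 19 and 2 of the 7 remained, and with no centring 9 and 0. Among the former, SUS1, a sucrose synthase (LOC_Os03g28330, chromosome 3, 16301276 to 16307632), had 16.2 FPKM in Sharbati grain, 3.67 in Sharbati root, 3.58 in Lalat grain and 420 in Lalat root. The Bowman-Birk inhibitor BBTI5, a protease inhibitor, had 41.0 and 13.1 FPKM in Sharbati and 0.961 and 403 in Lalat, and left the class with the abundant centre, at 1.87 and -7.71. The core histone LOC_Os03g17100 had 14.9 and 1.54 FPKM in Sharbati and 2.18 and 303 in Lalat. In each the Lalat root library was the highest of the 4 by a wide margin, and the order of the organs was reversed in Sharbati before centring too. The Bet v I protein LOC_Os12g36880, of a pathogenesis-related family, had 14.8 and 1.24 FPKM in Sharbati and 12.1 and 514 in Lalat. The 4 other compared Bowman-Birk loci were shared root-high, BBTI4 among them at 9.72 and 100.0 FPKM in Sharbati and 0.752 and 2072 in Lalat.

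**Figure D4:**
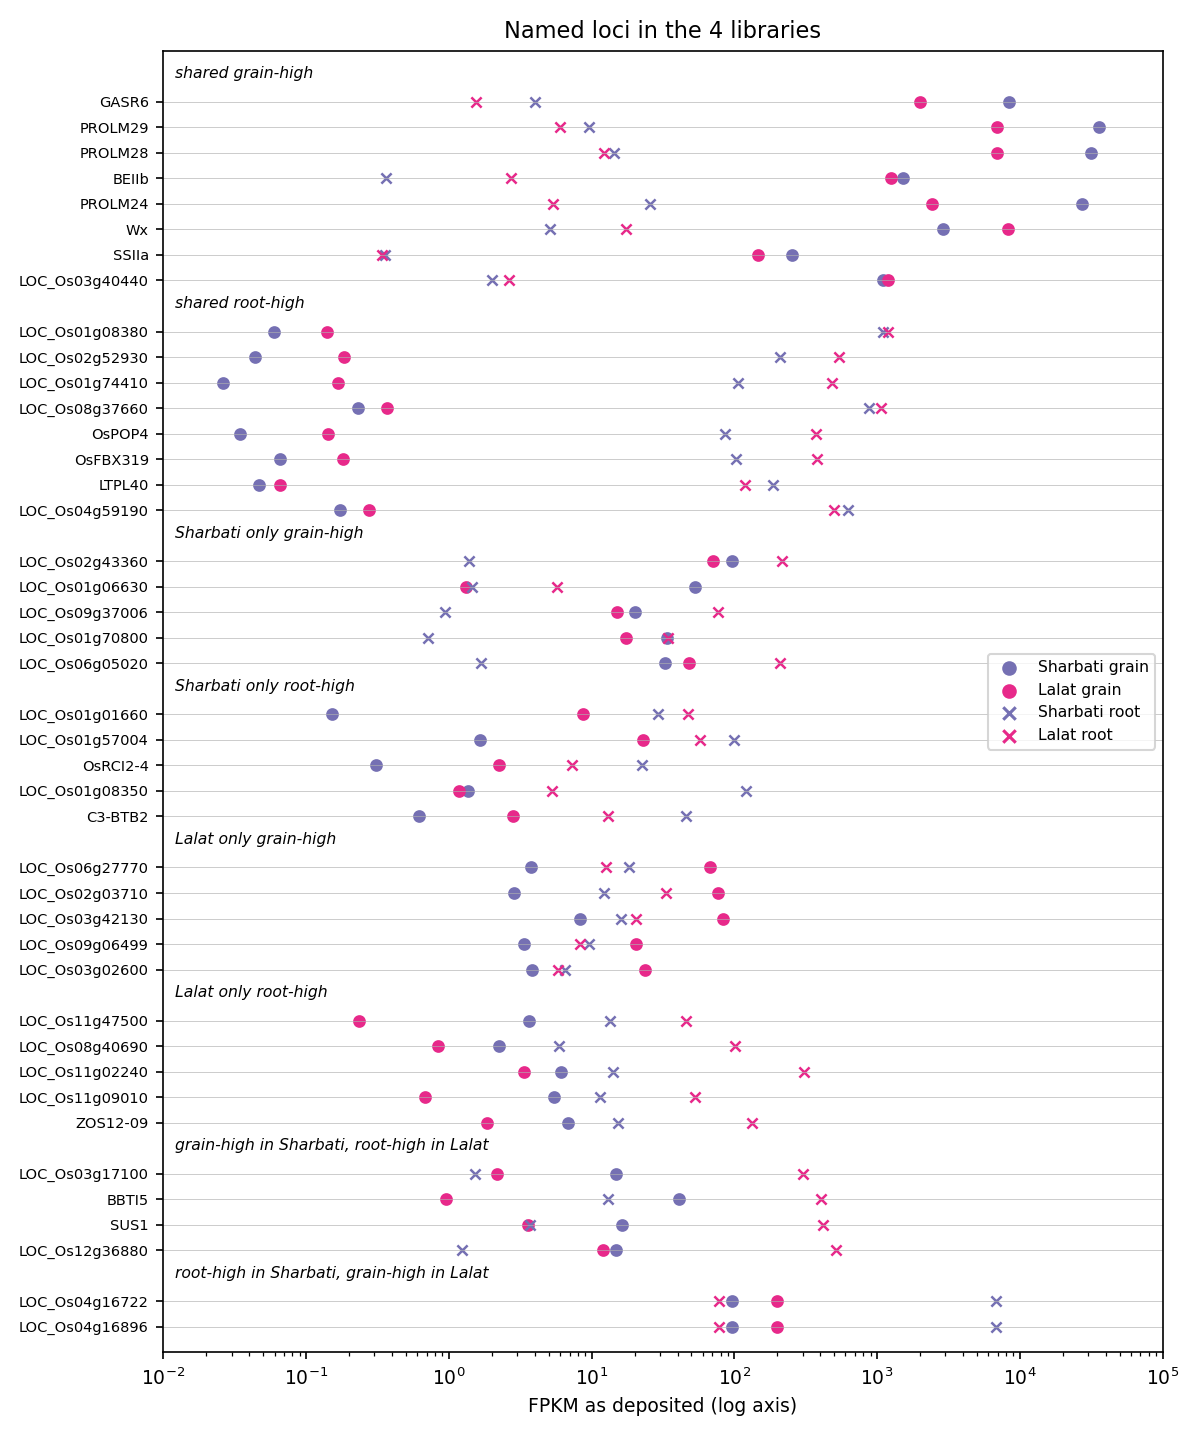
Deposited FPKM of the named loci of each class on a log axis, circles for grain and crosses for root, with Sharbati in violet and Lalat in pink. In the shared classes circles and crosses stand apart in both cultivars, as the choice of these loci by ratio requires. In the opposite class the Lalat root value of 420 for SUS1 and 514 for LOC_Os12g36880 stands alone at the right.

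In the other direction, root-high in Sharbati and grain-high in Lalat, the named loci were LOC_Os04g16722 and LOC_Os04g16896, both described as ycf68, a plastid reading frame, with the same coordinates and the same values in all 4 libraries. They amount to 1 measurement, at 95.8 FPKM in Sharbati grain, 6756 in Sharbati root, 198 in Lalat grain and 78.5 in Lalat root. The Sharbati root library stood alone there. In all 7 loci of this class the cultivar gap was larger in root than in grain, against 54.7% of the loci past the threshold in neither cultivar.

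Agreement between the cultivars varied with expression level. Among the 1579 compared loci whose geometric mean over the 4 libraries was below 5 FPKM, the median absolute difference between the ratios was 1.203, and among the 603 loci between 50 and 100 FPKM it was 0.82. It was 1.13 among the 464 loci above 100 FPKM. The one-cultivar or opposite classes held 7.73% of the lowest group. With rising level they held 12.8%, 11.4%, 9.54% and 8.13%, and 17.7% above 100 FPKM. A locus of the lowest group was compared only if it reached 5 FPKM in an organ of each cultivar, which favours a contrast in both. The shared classes held 59.0% of that group, so its 7.73% cannot be set against the other shares. One-cultivar or opposite loci were present at every level. Storage protein loci are among the most abundant, and the 10 highest loci of all took 38.2% of summed FPKM in the grain of Sharbati, 29.2% in that of Lalat, 21.5% in Sharbati root and 8.61% in Lalat root.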

How the data were processed

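FPKM values were deposited by the authors, 1 per transcript and library, in separate tables for the grain pair and the root pair. The submitters' processing notes name TopHat 1.3.3 and Bowtie 0.12.9, besides Cuffdiff and Cufflinks 1.3.0, and no genome build. FPKM hold no read counts, so depth and counting error are unknown and no interval was given. Transcripts were reduced to 1 value per locus by summing the distinct values. Grain over root log2 ratios used no pseudocount and were centred on the median of the 12912 members. Loci with 5 FPKM in an organ of each cultivar were compared at 4-fold. "One cultivar only" meant 4-fold in 1 cultivar and under 2-fold in the other. With 1 library per group no test was made. The assignment of classes was checked on simulated FPKM with known organ differences. That is a check of the calculation and says nothing about these libraries.

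The members and the 35 gene lists (10 of named genes, 25 by words in the deposited descriptions) were chosen with earlier results of these data known; 3 further lists, early nodulin 93 proteins, pyruvate decarboxylases and 6-phosphofructokinases, were added after values were seen. Of 118 named entries, 116 were listed. Loci were named by rule: 8 per shared class with the largest smaller ratio and 50 FPKM in the higher organ, 5 per one-cultivar class by the difference and 20 FPKM, up to 4 per opposite direction, all reference genes, and per list up to 4 by mean ratio and 2 by difference with 10 FPKM in a library. FER1, YSL2, SSIVb, PT2, IDEF1, IRO3, SSIIIb, SSIVa, GBSSII, ISA3, NAR2.1, SUS3, SUS4, LOC_Os02g13380 and LOC_Os01g63810 were named besides these, after their values were seen. Alternatives were 2-fold and 8-fold thresholds, a pseudocount of 1, no centring, centring on abundant loci, no filter, 2 other filters and the highest transcript value. Python 3.11.15, numpy 2.4.6, pandas 2.3.3 and matplotlib 3.10.9 were used. No sequences are shown.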

Additional observations from a re-analysis of the deposited data

Results flagged for a closer look

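In 13 named loci the centred ratios of both cultivars had opposite signs in a way that met the criterion for a contrast differing between cultivars. With 1 library per group the difference was not tested. The difference, Sharbati minus Lalat on the log2 scale, was 9.97 for BBTI5 (LOC_Os01g03360), 10.01 for the core histone LOC_Os03g17100, 8.63 for SUS1 (LOC_Os03g28330) and 8.60 for the Bet v I protein LOC_Os12g36880.

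It was 6.52 for the dehydrin LOC_Os11g26570, 6.42 for the NAC factor LOC_Os12g29330, 6.21 for WRKY62 (LOC_Os09g25070) and 5.50 for the DnaJ protein LOC_Os06g44160. WRKY62 had 9.57 FPKM in Sharbati grain, 6.10 in Sharbati root, 2.16 in Lalat grain and 133 in Lalat root. The difference was 4.25 for the hsp20 protein LOC_Os03g16020 and 3.67 for GAPDH (LOC_Os04g40950). In the other direction it was -7.86 for the ycf68 loci LOC_Os04g16722 and LOC_Os04g16896, which are 1 measurement, and -3.01 for the dirigent protein LOC_Os07g01660, with 13.6 and 81.3 FPKM in grain and root of Sharbati and 50.9 and 49.6 in Lalat.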

How the results depend on the processing

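The main counts were 758 shared grain-high, 1504 shared root-high, 696 Sharbati-only, 193 Lalat-only and 26 opposite loci, with an r of 0.856. At 2-fold, shared grain-high loci numbered 1915, Lalat-only 354 and opposite 138. At 8-fold they numbered 337, 93 and 8, and Sharbati-only loci 435. With no centring the shared counts were 223 grain-high and 2728 root-high, and Lalat-only loci 322. Centring on abundant loci gave 388 shared grain-high. With no filter there were 1216 Sharbati-only, 524 Lalat-only and 131 opposite loci, with an r of 0.746. A filter on the mean gave 48 opposite loci. Requiring 5 FPKM in Sharbati root gave 383 shared grain-high, 458 Sharbati-only and 16 opposite loci. The highest transcript value gave identical counts. The median ratio of the photosynthetic apparatus in Sharbati, 2.02 over 3 loci, was -0.58 with no filter and -0.30 with the filter on the mean, where more loci enter. Of the medians of lists under alternatives, 245 stayed within 1.5-fold of the main value and 201 moved further; the cause was not tested.

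No library was left out, each being the only 1 of its group. No paired analysis was possible because each cultivar and organ has 1 library. FPKM without counts set no detection limit.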
